A study of Mus musculus with 884 samples.

Results

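Mid-S-phase epiblast stem cells (EpiSC) were compared with mid-S-phase embryonic stem cells at day 5 of differentiation (d5), the day whose replication profile lay closest to EpiSC. S-phase cells with a replication score of 40 to 70% were taken, and 26 EpiSC cells of 74 and 20 d5 cells of 62 fell in this window, which makes 46 of the 884 cells in the series. Scores just outside it were 39.3 and 70.2% in EpiSC and 39.3 and 70.1% at d5, against 40.5 and 69.2% in EpiSC and 42.2 and 68.4% at d5 just inside. The score is the percentage of a cell's called autosomal bins that had been copied.

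The study used single-cell Repli-seq: individual cells are sorted by DNA content, the genome of each is amplified and sequenced, and every 80 kb bin is called replicated or not. EpiSC were female cells of the C57BL6 strain kept in Activin/FGF medium. The d5 cells came from CBMS1, a female embryonic stem cell line of the CBA and MsM strains that was kept in 2i/LIF, turned into epiblast-like cells for 2 days and then grown as floating aggregates in plain GK15 medium. The same line was sampled at d0, d2, d3, d4, d6 and d7, and the course is described as leading to neurectoderm.

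A mammalian genome is copied in a set order during S phase, and large neighbouring blocks share a time. Early-replicating blocks tend to be rich in active genes and open chromatin, whereas late blocks tend to lie at the nuclear periphery and to be silent, and many blocks switch when a cell changes identity. EpiSC are cultured from the post-implantation epiblast and represent the primed form of pluripotency, which embryonic stem cells pass near on their way to neurectoderm. A bin that more of the mid-S cells have copied is an earlier-replicating bin.

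Strain, culture medium and cell state all differ between EpiSC and d5 and cannot be told apart here. The mappability control also differed: it merged 4 G1 cells for EpiSC and 2 for d5, and for the d5 control cells the titles name day 5 where other labels name day 6. No culture is named for either group, so each group counts as 1 sample, cells are not replicates, and differences are given by size with no test. Intervals are exact Clopper-Pearson 95% intervals and cover counting error over cells only. The calls hold no transcript data, so the labels could not be set against marker genes.

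The groups had similar scores and similar coverage. The score averaged 57.1 ± 8.69% in EpiSC and 55.6 ± 8.55% at d5 (SD over 26 and 20 cells), with medians of 61.2% in EpiSC and 55.99% at d5. Between 29682 and 29849 of 30890 bins were called per EpiSC cell, and between 29530 and 29832 per d5 cell. None of the 46 cells carried a mark of the authors' own filters. Among the window cells of the other days, 2 such marks fell on d0 and 2 on d7, and the marked cells were kept.

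A few cells stood apart from their group. In 2 EpiSC cells and 4 d5 cells the calls matched the cells of another group of like score, within 5 points, better on average than those of their own. The EpiSC cell with the widest gap matched 81.6% of bins in other EpiSC cells, 82.7% in d5 cells and 83.0% in d7 cells. Among d5 cells the widest gap was in a cell that matched 80.7% of bins in other d5 cells and 82.2% in d2 cells. For the remaining 4 cells the gap was between 0.023 and 1.11 points. In 2 other d5 cells a single chromosome was out of step: chromosome 16 was 72.7% replicated in a cell with a score of 57.5%, 26.6 points above the group's usual offset, and chromosome 12 was 63.03% replicated in a cell with a score of 48.7%, 17.3 points above it.

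Most of the genome replicated at like times in both groups. Of 29755 bins called in at least 50% of the cells of each group, 18478 (62.1%) differed by less than 10 percentage points in the share of cells replicated. In both groups at once, 11484 bins (38.6%) were copied in at least 80% of cells and 7516 bins (25.3%) in at most 20%. Across bins the shares correlated with Pearson's r = 0.913 between EpiSC and d5, as a description with no p, since neighbouring bins share their calls. For the other days r with EpiSC was 0.853 (d0), 0.859 (d2), 0.808 (d3, with the fewest cells, 13), 0.892 (d4), 0.894 (d6) and 0.894 (d7). The d5 profile itself stood at r = 0.931 with d4 and 0.927 with d6, both above its value with EpiSC.

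**Figure D1:**
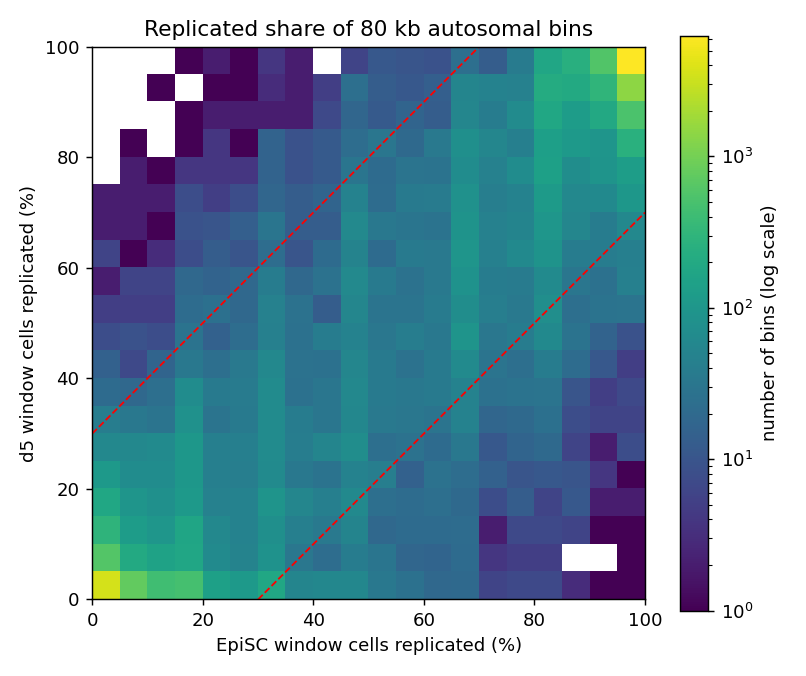
Number of 80 kb autosomal bins (colour, log scale) by the percentage of EpiSC window cells (horizontal) and of d5 window cells (vertical) that had replicated them, in classes of 5 points; dashed lines mark a difference of 30 points. The corners where both groups are early or both late hold the most bins, and the columns that alternate in brightness come from the number of EpiSC cells, since a class can hold 1 or 2 of the possible shares of 26 cells.

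Bins past a difference of 30 percentage points were counted as earlier or later in EpiSC. Earlier in EpiSC were 1795 bins, 6.03% of those compared and 143.6 Mb of sequence. Later in EpiSC were 930 bins, 3.13% of those compared and 74.4 Mb, so that 9.16% of bins differed in either direction. The earlier bins had been copied on average in 68.7% of EpiSC cells and 26.4% of d5 cells, and the later bins in 30.2% of EpiSC cells and 70.5% of d5 cells. A full exchange between early and late was rare: 55 bins were copied in at least 80% of EpiSC cells and at most 20% of d5 cells, and 11 bins had the opposite pattern. The plot of EpiSC against d5 shares shows this as nearly empty corners at lower right and upper left.

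The surplus of earlier over later bins was smaller with score-paired cells and with the difference centred on its mean. When each d5 cell was paired with the EpiSC cell nearest in score, the mean score was 55.4% in EpiSC and 55.6% at d5, and 1634 bins were earlier and 1486 later in EpiSC. With 20 cells a side many bins fell exactly on the 30-point line, 450 earlier and 487 later, and 1184 earlier and 999 later bins lay beyond it. With all 46 cells, 62 earlier and 41 later bins lay exactly on the line. Among the score-paired counts, 1519 of the earlier bins and 924 of the later bins were among those reported with all cells. The pairing also takes the EpiSC cells down to 20, so that score and cell number change together and cannot be told apart in it. With scores of 45 to 65%, which left 21 EpiSC and 14 d5 cells and did not pair their scores, the counts were 2296 earlier and 949 later bins. With the difference centred on its mean they were 1562 earlier and 1037 later.

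Sorted by their d5 share, the bins earlier in EpiSC lay at the late end and in the middle of the d5 order. Of 9552 bins copied in at most 20% of d5 cells, 879 (9.20%) were earlier in EpiSC. The share was 16.4% of bins at 20 to 40% in d5 and 14.9% of bins at 40 to 60% in d5. Bins later in EpiSC were most frequent, at 10.6%, where d5 had 60 to 80%, and made up 2.56% of the 11967 bins above 80%. The ends of this scale limit what can be counted, since a bin above 70% in d5 has no room for a 30-point gain. The d5 share also enters the difference itself. Bins that are low at d5 by counting error thus tend to count as earlier, and bins that are high at d5 by it as later.

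Chromosomes differed in how much of them was earlier in EpiSC. Chromosome 6 had the highest percentage, with 188 bins (10.3%) earlier and 29 (1.59%) later, and its mean share was 54.98% in EpiSC and 50.3% at d5. Chromosome 13 followed with 9.40% earlier, and also had 4.73% later. At the other end, chromosome 11 had 3.03% in each direction, and chromosomes 12 and 15 had more later than earlier bins, at 4.60 against 3.16% and 3.74 against 3.26%. Chromosome 12 is one of the chromosomes that was out of step in a d5 cell; that cell's part in its count was not tested by itself.

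**Figure D2:**
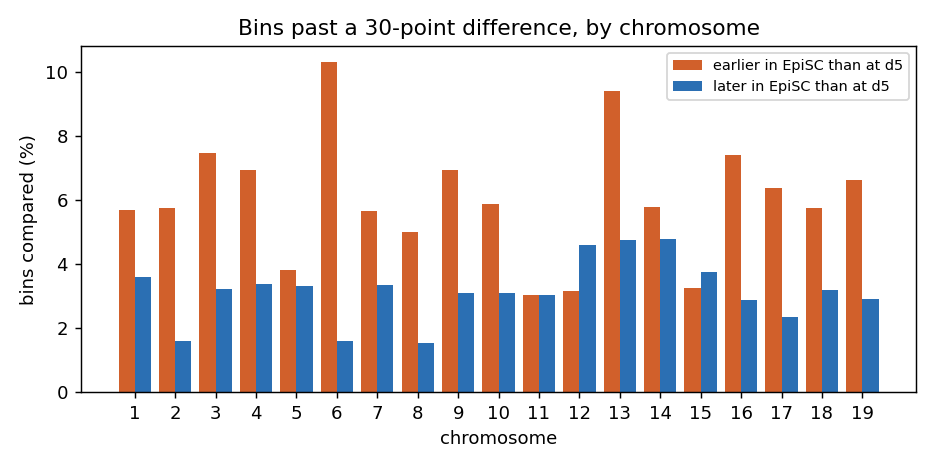
Percentage of compared 80 kb bins on each autosome that were earlier (orange) or later (blue) in EpiSC than at d5 by at least 30 points; each bar is 1 count over all window cells, without error bars because each group is 1 sample. Chromosome 6 stands highest at 10.3% earlier, and chromosomes 12 and 15 are the autosomes where the later bar exceeds the earlier one.

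Position along the chromosome went with the direction. Mouse autosomes have the centromere at the start of their coordinates. In the first 10 Mb covered on each autosome, 9.59% of bins were earlier in EpiSC, against 3.75% in the last 10 Mb and 5.92% between. The percentages later in EpiSC were 2.99% in the first 10 Mb, 3.96% in the last 10 Mb and 3.06% between.

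Bins past the line formed blocks. Runs of at least 5 adjacent bins, 400 kb or more, made 120 regions earlier in EpiSC, which held 1008 bins (56.2% of the earlier bins). Later in EpiSC were 58 regions with 406 bins (43.7% of the later bins). With score-paired cells there were 105 regions in each direction. The earlier regions had a median length of 640 kb and reached 1520 kb, and the later ones had a median of 480 kb and reached 1120 kb. Mean differences within regions had a median of 43.1 points (range 32.6 to 63.3) for earlier regions, and of -44.3 points for later regions, where their size ran from 32.6 to 60.7 points.

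Whether a region lay at the edge of a timing domain was judged by the 5 bins on either side at d5. Of the earlier regions, 54 had an early flank on one side and a late flank on the other, 39 lay between late flanks and 23 between early flanks. Of the later regions, 29 lay at such an edge, 11 between late flanks and 17 between early flanks. In 4 earlier regions and 1 later region a flank could not be classed. Flanks counted as early when over 50% of cells had copied them. The flanks of stretches that did not differ were not classed, so these counts do not show whether edges were over-represented.

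Within a region a cell had usually copied nearly all of it or little of it. Over all pairs of a cell and an earlier region, at least 80% or at most 20% of the called bins were replicated in 79.01% of pairs in EpiSC and 78.6% at d5. For later regions the figures were 80.1% in EpiSC and 82.1% at d5. An intermediate share of a group thus came mostly from cells that had copied a block and cells that had not. Neighbouring bins share their calls, and stretches of like length that did not differ were not measured. Whether this is particular to these regions was therefore not tested. For the regions below, a cell with calls of replication in more than 50% of a region's called bins counts as replicated, and the lowest, median and highest percentage of the region copied per cell are given. Positions are in mm9, the build of the files, and carry no gene names, because no annotation of that build was used here.

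The largest difference in the earlier direction was at chr6:55920001-56400000, 480 kb at a domain edge. Replication was called there in 20 of 26 EpiSC cells (76.9%, interval 56.3 to 91.0%) and 1 of 20 d5 cells (5%, interval 0.127 to 24.9%). Per cell, 0, 100 and 100% of the region was copied in EpiSC and 0, 0 and 100% at d5. EpiSC and d5 overlapped through the 4 EpiSC cells that had copied at most 20% of it and the single d5 cell that had copied all of it. On the other days the mean share lay between 11.5% at d3 and 38.7% at d0, against 75% in EpiSC.

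Another strong case lay on chromosome 4, at chr4:28400001-29440000, between flanks that no d5 cell had copied. Here 17 of 26 EpiSC cells were replicated, and 0 of 20 d5 cells, a count that allows a share of up to 15% by the limit of 3 counts of the total (the exact interval reaches 16.8%). Per cell the copied percentage ran from 0 over a median of 80.8 to 100 in EpiSC, and from 0 over a median of 0 to 46.2 at d5. The block was isolated in EpiSC as well, with mean shares of 22.3 and 11.5% in its flanks against 66.3% inside. Levels on the course were low until d5 (8.55% at d4, 3.46% at d5) and stood at 33.7% at d6 and 23.8% at d7.

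Further blocks on chromosomes 2, 6 and 16 set EpiSC apart from all sampled days. At chr2:54800001-55680000, 22 of 26 EpiSC cells and 4 of 20 d5 cells were replicated, with per-cell values of 0, 90.9 and 100% in EpiSC and 0, 0 and 81.8% at d5. Its mean share of 75.9% in EpiSC exceeded the highest of the days, 24.3% at d0, by 51.5 points, the widest such gap among the earlier regions. Flanks on both sides were late in both groups, at 13.1 and 16.9% in EpiSC and 0 and 6% at d5.

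At chr6:23200001-24400000 replication was found in 21 of 26 EpiSC cells and 1 of 20 d5 cells. Cells had copied 26.7, 86.7 and 100% of it in EpiSC and 0, 13.3 and 60% at d5, and no EpiSC cell was without any copied bin. All 7 days lay between 19.3 and 27.7%, so that the level was nearly flat over the course while EpiSC stood at 76.7%. At chr16:5600001-6720000 the counts were 23 of 26 EpiSC cells and 3 of 20 d5 cells, and per-cell values were 0, 100 and 100% in EpiSC and 0, 3.57 and 100% at d5. The days ran from 6.04% at d3 to 36.1% at d6, and the mean share was 84.9% in EpiSC and 23.6% at d5.

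The longest earlier regions were both 1520 kb. At chr16:57120001-58640000, 24 of 26 EpiSC cells and 3 of 20 d5 cells were replicated, with 0, 100 and 100% copied per cell in EpiSC and 0, 28.95 and 100% at d5. It lay at an edge, with flanks at 66.2 and 29.2% in EpiSC and 69 and 19% at d5. At chr9:17840001-19360000 the difference was smaller, with 14 of 26 EpiSC cells and 2 of 20 d5 cells, and medians of 57.9% in EpiSC and 0% at d5. That block stood at 42.1% at d3 and 4.63% at d7, against a mean of 56.5% in EpiSC. Over all regions, EpiSC lay above the 7 days in 95 of the 120 earlier regions (79.2%) and below them in 37 of the 58 later regions (63.8%). The regions were chosen on the EpiSC shares of these same cells, which favours such counts. EpiSC also had the highest mean score of all groups, and these counts were not adjusted for it.

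Among the remaining earlier regions, chr8:64240001-64800000 was replicated in 25 of 26 EpiSC cells and 2 of 20 d5 cells, and its levels varied along the course from 9.52% at d4 to 61.8% at d7. At chr13:14480001-15440000 the counts were 25 of 26 EpiSC cells and 5 of 20 d5 cells; the days lay between 27.8 and 44.4%, against 92.3% in EpiSC. At chr6:12240001-13440000 replication was found in 17 of 26 EpiSC cells and 0 of 20 d5 cells. At chr3:93360001-94080000, between early flanks, 22 of 26 EpiSC cells and 4 of 20 d5 cells were replicated. The level of that last block was 85.5% in EpiSC, 25.2% at d5 and 81.7% at d3, so that EpiSC lay only 3.76 points above the highest day.

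**Figure D3:**
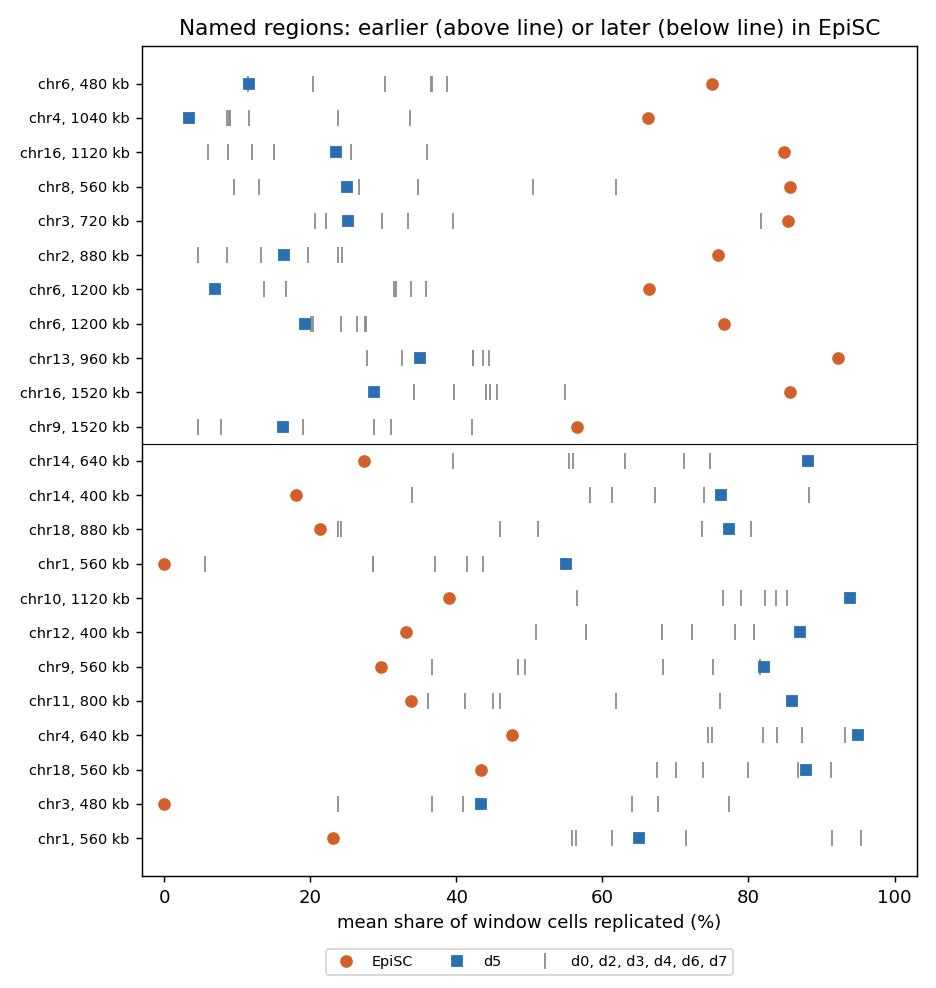
Mean percentage of window cells replicated over each of the 23 named regions, labelled by chromosome and length, in EpiSC (orange circles), d5 (blue squares) and the other 6 days (grey ticks); regions above the line are earlier and those below it later in EpiSC than at d5. The EpiSC points lie beyond all the days, by up to 51.5 points in the earlier direction and 32.7 in the later direction, and part of these regions were named for that. Over all regions it held in 95 of 120 earlier and 37 of 58 later ones, which the choice of regions on the EpiSC shares also favours.

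In the later direction the largest difference was at chr14:54000001-54640000. Replication was found there in 3 of 26 EpiSC cells (11.5%, interval 2.45 to 30.2%) and 18 of 20 d5 cells (90%, interval 68.3 to 98.8%). Per cell, 0, 18.8 and 100% was copied in EpiSC and 37.5, 100 and 100% at d5. The neighbouring region chr14:53520001-53920000, 1 bin away, was replicated in 5 of 26 EpiSC cells and 9 of the 12 d5 cells with any call in it. Calls were missing there for the other d5 cells, so the 2 stretches rest on unequal cell numbers. Whether they form 1 block was not tested.

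At chr1:18880001-19440000, 0 of 26 EpiSC cells had copied any part of the block, which allows a share of up to 11.5% by the same limit (the exact interval reaches 13.2%), and 13 of 20 d5 cells were replicated. Values per cell were 0, 0 and 0% in EpiSC and 0, 64.3 and 100% at d5. Flanks were late in both groups, at 6.92 and 2.31% in EpiSC and 1 and 9% at d5, which makes it an isolated island that part of the d5 cells and none of the EpiSC cells had copied. The level was 5.57% at d0 and between 28.6 and 43.7% on d2, d3, d4, d6 and d7.

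A second block with no replicated EpiSC cell was chr3:133040001-133520000, with 0 of 26 EpiSC cells and 10 of 20 d5 cells. Cells had copied 0, 0 and 0% of it in EpiSC and 0, 41.7 and 100% at d5. It was high at d0, at 77.4%, and stood at 23.8% at d6 and 40.9% at d7. Every day had some copying, and EpiSC lay 23.8 points below the lowest of them.

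The longest later region was chr10:70000001-71120000, 1120 kb at a domain edge. Here 10 of 26 EpiSC cells and 20 of 20 d5 cells were replicated, and per-cell values were 0, 35.7 and 100% in EpiSC and 57.1, 100 and 100% at d5. The flank on the early side stood at 85.4% in EpiSC and 99% at d5, and the flank on the late side at 3.08% in EpiSC and 15% at d5. The mean share was 39.01% in EpiSC, 56.6% at d3 and between 76.5 and 93.9% on the other days.

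Regions on chromosomes 1 and 4 lay farthest below the days. At chr1:71360001-71920000, 5 of 26 EpiSC cells and 14 of 20 d5 cells were replicated, with medians of 14.3% in EpiSC and 64.3% at d5. It stood at 95.4% at d0 and 55.8% at d6, and EpiSC at 23.1% was 32.7 points below the lowest day. At chr4:142480001-143120000 the counts were 11 of 26 EpiSC cells and 20 of 20 d5 cells, with 0, 50 and 100% copied per cell in EpiSC and 75, 100 and 100% at d5. In cells outside the window this difference was nearly absent, at 18.2% in EpiSC and 19.8% at d5 in early S, and 98.8% in EpiSC and 100% at d5 in late S.

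The other later regions had smaller gaps to the days. At chr12:36640001-37040000, an island between late flanks, 10 of 26 EpiSC cells and 19 of 20 d5 cells were replicated. At chr9:98080001-98640000 the counts were 8 of 26 EpiSC cells and 18 of 20 d5 cells, and at chr11:63600001-64400000 they were 8 of 26 EpiSC cells and 17 of 20 d5 cells. Region chr18:84720001-85280000 was replicated in 13 of 26 EpiSC cells and 18 of 20 d5 cells. At chr18:68720001-69600000, with 7 of 26 EpiSC cells and 15 of 20 d5 cells, the mean share of 21.3% in EpiSC lay close to the 24.2% of d2 and the 23.8% of d3, against 77.3% at d5.

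**Figure D4:**
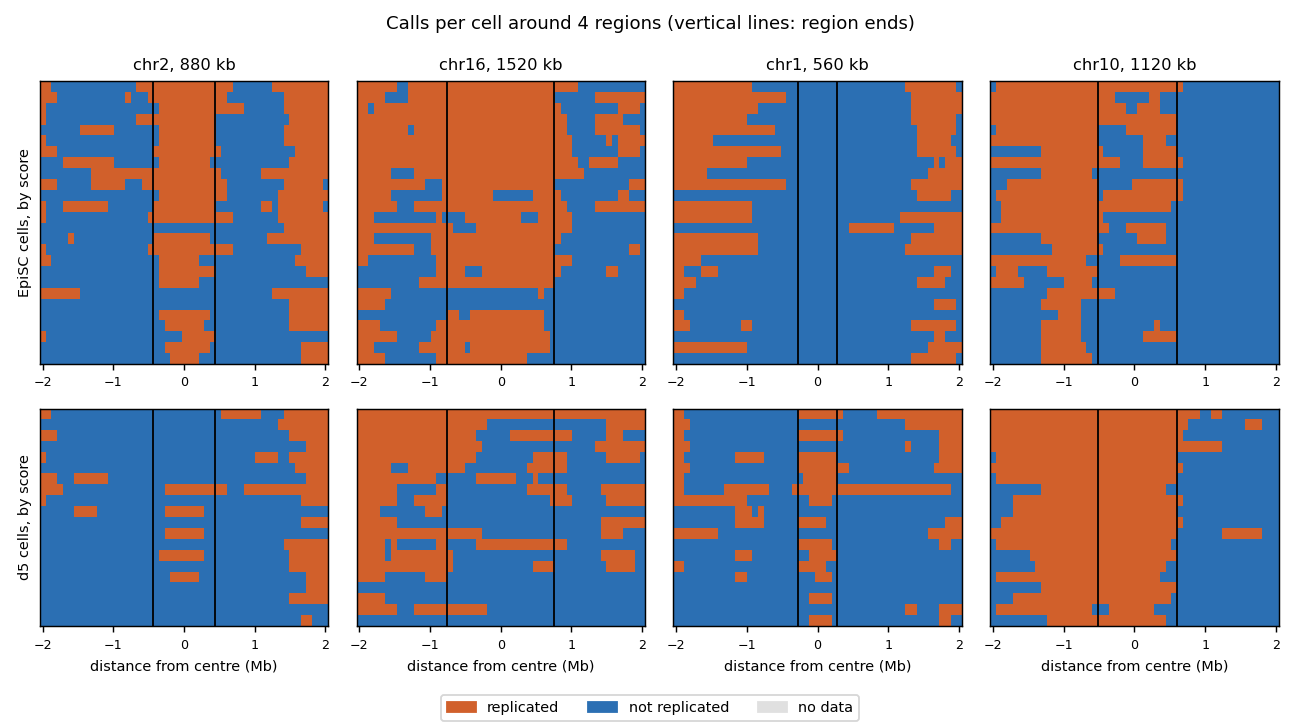
Calls of every window cell (rows, ordered by score, highest at the top) in EpiSC (upper panels) and d5 (lower panels) around 4 regions, by distance from the region's centre in Mb; orange is replicated, blue not replicated, grey no data. On chromosomes 2 and 16 the block between the lines is copied in 22 and 24 of 26 EpiSC cells and in 4 and 3 of 20 d5 cells, and on chromosomes 1 and 10 in 0 and 10 EpiSC cells and in 13 and 20 d5 cells.

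The plot of calls shows where the block ends fall. On chromosome 2 the copied block began near the left-hand line in most EpiSC cells. Its right end varied, short of the right-hand line in some cells and past it in others, and the block tended to be longer at higher scores. On chromosome 10 the early domain reached the right-hand line in d5 cells and stopped near the left-hand line in many EpiSC cells, some of which had a separate copied stretch further right.

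Cells that played no part in choosing the regions gave the same direction for most of them. S-phase cells with scores from 20% up to the window (early S) and from the window up to 85% (late S) comprised 11 and 10 EpiSC cells and 12 and 10 d5 cells. Over the 120 earlier regions, early-S cells had copied 25.3% in EpiSC and 8.02% at d5, and late-S cells 93.3% in EpiSC and 74.2% at d5. Averaged over both parts, 114 of these regions were higher in EpiSC, by 20 points or more in 44. Fewer of them were higher in EpiSC in early-S cells alone, and fewer again in late-S cells alone.

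For the 58 later regions the early-S values were 3.25% in EpiSC and 23.8% at d5, and the late-S values 75.8% in EpiSC and 93.9% at d5. Averaged over both parts, 57 of the 58 were lower in EpiSC, and this held in 56 for early-S cells alone and in 52 for late-S cells alone. Mean scores were 32.1% in EpiSC and 31.3% at d5 for early-S cells, and 74.8% in EpiSC and 77.9% at d5 for late-S cells. These cells are from the same populations, so they check the choice of regions but not the sample.

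Single regions followed in these cells to different degrees. At chr1:18880001-19440000, 1 of 10 late-S EpiSC cells was replicated, against 8 of 10 late-S d5 cells. At chr2:54800001-55680000 late-S replication was found in 10 of 10 EpiSC cells and 2 of 10 d5 cells. The difference was smallest at chr4:142480001-143120000, at -1.43 points averaged over both parts, and the next smallest, 5.37 points, was at chr13:14480001-15440000, where 1 of 11 EpiSC cells and 1 of 12 d5 cells were replicated in early S, and 10 of 10 EpiSC cells and 8 of 10 d5 cells in late S. At chr9:17840001-19360000 the early-S cells ran the other way, with a mean share of 6.22% in EpiSC and 17.2% at d5.

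The score at which a region was copied in a typical cell was also compared. This midpoint came from a logistic fit of the calls on the score over S-phase cells. Part of these are the window cells that chose the regions, which favours a shift in the chosen direction. Over the earlier regions it had a median of 46.5% in EpiSC and 69% at d5, and it was lower in EpiSC in 120 of 120. For later regions the medians were 66% in EpiSC and 44% at d5, with 58 of 58 higher in EpiSC. The region chr16:5600001-6720000 had midpoints of 24% in EpiSC and 67% at d5, and chr12:36640001-37040000 of 62% in EpiSC and 28% at d5.

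On the course from d0 to d7 the differing bins were not at a steady level. Bins earlier in EpiSC, with 68.7% in EpiSC, had mean shares of 41.9% (d0), 32.5% (d2), 39.6% (d3), 34.6% (d4), 26.4% (d5), 37.8% (d6) and 41.2% (d7). Bins later in EpiSC, with 30.2% in EpiSC, had 56.8% (d0), 47.9% (d2), 48.6% (d3), 51.2% (d4), 70.5% (d5), 54.9% (d6) and 56.98% (d7). In both sets d5 lay farther from EpiSC than the days beside it. The bins were chosen on the d5 values, which places d5 at the extreme by the choice itself.

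Set against d4 and d6 as well, 617 of the 1775 earlier bins called in all groups (34.8%) and 119 of the 924 later bins (12.9%) were still past 30 points on both. Over all bins compared, 7.68% were earlier and 2.97% later in EpiSC than at d4, and 7.54% were earlier and 3.99% later than at d6. Of all 29544 bins called in every group, 11.96% were higher and 6.71% lower in EpiSC than on all 7 days. Of those 1775 earlier bins, 1112 (62.6%) were higher in EpiSC than on all 7 days. Of the 924 later bins, 425 (45.996%) were lower in EpiSC than on all 7 days. These counts are descriptions, since choosing bins for their EpiSC value and its distance from d5 already favours them. A wide margin was rarer: EpiSC stood at least 30 points above every day in 226 bins and as far below every day in 20 bins. Where each profile was centred on its own mean these counts were 179 above and 30 below. EpiSC had the highest mean score, 57.1%, against 56.3% (d0), 52.3% (d2), 53.7% (d3), 53.4% (d4), 55.6% (d5), 54.5% (d6) and 56.4% (d7). The counts that were not centred were not adjusted for this. The days within 2 points of it were d0, d5 and d7. With only these days compared, EpiSC stood at least 30 points above each in 461 bins and as far below each in 194.

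The difference was present cell by cell. For each cell the percentage copied of the earlier bins minus that of the later bins was taken as an index in percentage points. It ran from 1.88 over a median of 36.8 to 59.2 in EpiSC cells, and from -55.6 over a median of -43.1 to -34.5 in d5 cells. The groups did not overlap, which the choice of bins on these cells favours. The lowest EpiSC cell, at 1.88, was the cell that matched d7 cells better than its own group, and the next lowest stood at 27.7.

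Most cells of the other days lay between the groups. Their medians ran from -18.1 at d6 to -9.16 at d3, and 3 d0 cells and 1 d4 cell were at or above the lowest EpiSC cell. These cells had fewer called bins than was usual for their day. The d0 cells had 26813, 26993 and 29114, against a d0 median of 29683, and the d4 cell had 29180, against a d4 median of 29792. In cells outside the window the index ran from 9.83 to 28.8 in early-S EpiSC cells and from -25.5 to 9.60 in early-S d5 cells. Late-S values ran from 9.74 to 34.98 in EpiSC and from -22.7 to -8.67 at d5. The groups did not overlap in either part of S phase, and in early S the lowest EpiSC cell and the highest d5 cell nearly touched.

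**Figure D5:**
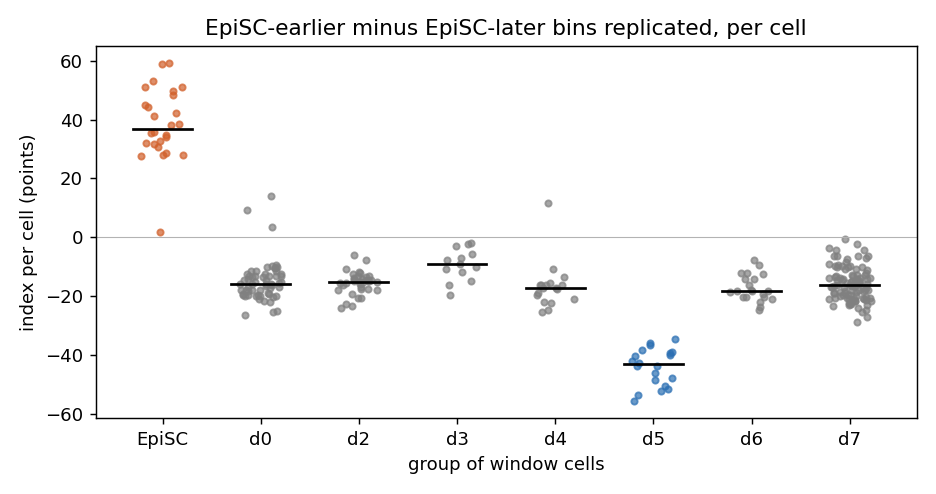
Index per window cell, the percentage copied of the bins earlier in EpiSC minus that of the bins later in EpiSC, in percentage points, for EpiSC and for d0 to d7; each point is a cell and each bar a group median. EpiSC cells lie between 1.88 and 59.2 and d5 cells between -55.6 and -34.5, the ends set by the choice of bins; the other days' cells lie between the groups except for 3 d0 cells and 1 d4 cell, which lie within the EpiSC range and have fewer called bins than the median of their day.

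Over the whole genome the separation of single cells was modest. Pairs of cells within 5 points of score were called alike in a median of 81.9% of bins between EpiSC and d5 (164 pairs). Within EpiSC the median was 83.3% (127 pairs), and within d5 it was 84.4% (55 pairs). Pairs share cells, so these medians are given without error.

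Left without the 6 cells that matched another group better, the comparison gave 1792 earlier and 1118 later bins, in 112 earlier and 81 later regions. Without the 2 d5 cells with a chromosome out of step it gave 1670 earlier and 1000 later bins, in 110 earlier and 62 later regions. Leaving out 1 cell at a time, the counts ranged from 1634 to 2020 earlier bins and from 819 to 1041 later bins.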

How the data were processed

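The authors' deposited table holds a call per cell and 80 kb bin of chromosomes 1 to 19, a score of 1 (replicated), -1 (not replicated) or 0 (no data), and the deposited replication score is a fraction; recomputed from the calls it differed by at most 5.00e-10. The tools were BWA 0.7.10-r789, cutadapt and Picard on mm9, per the submitters' processing notes; per the file headers, the authors corrected mappability with merged G1 controls. Smoothing and thresholds were set before deposit, and read depth is not known here; bins called per cell stand in for it.

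Groups came from titles, and 7 G1 cells with conflicting labels were left unassigned. Shares are replicated cells over cells with a call. Differences of 0.3 or more were counted, and runs of at least 5 bins formed regions. Named regions were the 8 largest by mean difference and the longest in each direction, and the 4 in each direction lying farthest outside the range of the days. Midpoints used S-phase cells with scores of 5 to 95%, with 1% of calls taken as wrong. The steps were tested on simulated data. The cells, lists and rules were chosen with earlier results of these data known. Python 3.11.15, numpy 2.4.6, pandas 2.3.3, scipy 1.17.1 and matplotlib 3.10.9 were used.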

Additional observations from a re-analysis of the deposited data

How the results depend on the processing

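All alternatives kept more bins earlier than later in EpiSC. With each d5 cell paired in score with an EpiSC cell, 1634 bins were earlier and 1486 later, and regions were equal at 105 in each direction, against 1795 and 930 bins and 120 and 58 regions as reported. A difference of 0.2 gave 3333 earlier and 2083 later bins in 243 and 156 regions, 0.4 gave 869 and 405 in 53 and 22, and 0.5 gave 371 and 136 in 24 and 5. By the logistic midpoint, with a shift of 15 points, 2009 bins were earlier and 1549 later, of 23766 bins compared in this way. Of these, 1125 earlier and 726 later bins were among those reported. Runs of at least 3 bins made 229 earlier and 135 later regions, and runs of at least 10 bins 35 and 10. Against pooled d4, d5 and d6 cells, chosen after seeing the data, 520 bins and 34 regions were later. The causes were not tested. The alternatives without single cells that stood apart, without chromosome 6 and against d4 and d6 were also chosen after seeing the data. Leaving out each cell in turn gave 1634 to 2020 earlier and 819 to 1041 later bins, 104 to 136 earlier and 51 to 70 later regions, and r between 0.909 and 0.914. The 23 named regions kept their direction under all 8 settings tried on them, but in the cells outside the window 8 of them left the counting-error interval of their reported difference: 3 on chromosome 6, 2 on chromosome 16, and chr13:14480001-15440000 (5.37 points), chr4:142480001-143120000 (-1.43 points) and chr14:54000001-54640000. Against d4 and d6 that last region left it too, at -20.7 points. No paired analysis was possible because replicate numbers only name cells and each group is 1 sample. With 26 and 20 cells, the cell number limits the precision of each share.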
